A study of Homo sapiens with 12 samples.

Results

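A set of 10 genes that carry or limit TGF-β and BMP signalling was followed through a block of transcription: 7 feedback regulators (BAMBI, SMAD6, SMAD7, SKI, SKIL, TGIF1 and TGIF2) and 3 SMADs that carry the signal (SMAD2, SMAD3 and SMAD4). They were taken by gene symbol, and all 10 are among the 23615 genes of both deposited expression tables. HEK293T cells, a human embryonic kidney line carrying the SV40 large T antigen, had been given 2 μM CP25, a macrocyclic compound that the labels name as an inhibitor of the decapping enzyme Dcp2, or peptide storage buffer as vehicle. After 18 h, actinomycin D was added at 5 μg/mL to stop transcription, and poly(A) RNA was sequenced at 0 h and 2 h. Each of the 4 combinations of treatment and time had 3 libraries, all of this one cell line. Whether replicates came from separate cultures is not said in the labels. The p-values thus refer to variation among the sequenced libraries, and that variation could be purely technical.

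Ligands of the TGF-β family bring together type I and type II receptor kinases, which phosphorylate receptor-regulated SMADs. TGF-β and activin receptors act on SMAD2 and SMAD3, BMP receptors on SMAD1, SMAD5 and SMAD9, and SMAD4 is the partner that both branches share. The complexes enter the nucleus and switch on, among other genes, their own inhibitors. BAMBI resembles a type I receptor without a kinase domain and blocks receptor complexes, SMAD6 and SMAD7 bind activated receptors or recruit ubiquitin ligases to them, and SKI, SKIL (also called SnoN), TGIF1 and TGIF2 hold SMAD complexes in a repressive state at DNA. An inhibitor whose mRNA is short-lived can track the signal closely, which is why mRNA turnover matters in this pathway.

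Sequence elements that shorten mRNA lifetime are often AU-rich, with the core pentamer ATTTA in DNA letters, and the 3′ untranslated regions (3′ UTRs) of the 10 genes were searched for it on the transcript strand. They came from the principal GENCODE 29 transcript of each gene (GRCh38). The sites printed here are the 30 bases with most ATTTA in that region, the first where several were equal, printed 5′ to 3′ with ATTTA in capitals. BAMBI and SKIL are shown for the densest feedback 3′ UTRs, SMAD7 and SMAD6 as the inhibitory SMADs, and SMAD2 as a signal carrier.
BAMBI: atcttgATTTAttgtaaagATTTAaaagaa
SKIL: ccccaaatgtaATTTATTTActaaattgag
SMAD6: atcatctacctagATTTAatataaagtttt
SMAD7: attctcattggaaATTTAgcattgtagtgc
SMAD2: ggggaaaagccATTTATTTAgcaagttttt
All 5 lie within the 3′ UTR exon sequence of their gene. The BAMBI site is at chr10:28682719-28682748 (plus strand), the SKIL site at chr3:170393962-170393991 (plus), the SMAD6 site at chr15:66781647-66781676 (plus), the SMAD7 site at chr18:48920175-48920204 (minus) and the SMAD2 site at chr18:47840500-47840529 (minus), all in GRCh38. The deposited tables hold no coordinates, and their reads had been aligned to hg19 per the submitters' processing notes.

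BAMBI had the densest 3′ UTR of the 10, with 5 ATTTA in 538 bases, or 9.29 per kilobase. This density was at the 98.5th percentile of 10755 expressed genes, whose median was 1.69 per kilobase. SKIL had 23 ATTTA in 4418 bases (5.21 per kilobase) and SMAD6 had 6 in 1313 (4.57). SMAD7, with 3 in 1519 bases (1.97), lay near the median of all genes. TGIF1 (471 bases) and TGIF2 (2519 bases) held none in these regions. The signal carriers ranged from 1.5 per kilobase in SMAD3 to 2.71 in SMAD2, whose annotated 3′ UTR is 32870 bases long. At least 1 ATTTA was present in 71.7% of the 10755 genes, so its presence alone sets no gene apart. The longer form TATTTAT, which contains ATTTA, occurred in 34.1% of genes, and among the 10 it occurred once in SMAD6, SMAD7 and SKI, 3 times in SKIL, 2 times in SMAD3 and 8 times in SMAD2. The nonamer TTATTTATT occurred in 8.76% of genes and among the 10 in SMAD2 only, 1 time. BAMBI, TGIF1, TGIF2 and SMAD4 lacked TATTTAT. Among genes of like 3′ UTR length it occurred in 16.3%, 15.5%, 52.7% and 75.1%, in that order. For those that held it, the share was 32.2% for SMAD6, 35.1% for SMAD7, 60.3% for SKI, 70.6% for SKIL and 71.6% for SMAD3. SMAD2 had no genes of like length. A match to these letters is a description of the sequence.

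Depth and identity of the libraries were checked first. Expression is given in FPKM, fragments scaled to transcript length and to the size of the library, so levels of different genes can be set side by side as far as the transcript lengths used by the authors hold. The depth, estimated from the smallest FPKM steps, was about 13000000 to 22000000 fragments per library at 0 h and 21800000 to 29200000 at 2 h. All 10 markers chosen for HEK293T, such as VIM, KRT8 and NEFL, were expressed, whereas of 5 haematopoietic, 2 hepatocyte and 3 endothelial markers none reached 1 FPKM. KRT10, COL1A1 and COL3A1 passed 1 FPKM from the lists for keratinised epithelium and fibroblasts. One library stood apart: in CP25 replicate 3 at 2 h the small nucleolar RNA gene SNORD63 was listed at 75800 FPKM, which was 12.6% of all summed FPKM (top gene of the other libraries 0.965% to 1.6%). Several of the CP25 effects on the 10 genes are also given without it.

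Before the block, the corepressor SKI was the most abundant of the 10 mRNAs. It measured 24.8, 22.4 and 25.2 FPKM in vehicle replicates 1 to 3, and TGIF2 followed at 18.6, 21.0 and 19.3 FPKM. BAMBI came next with 12.2, 9.35 and 11.2 FPKM, and its range overlapped that of SMAD6, at 11.6, 7.62 and 8.57 FPKM. SMAD6 varied most between libraries of this group (coefficient of variation 22.5%) because replicate 1 was high, and in CP25 replicate 1 was high too. SKIL measured 9.28, 7.98 and 8.07 FPKM and TGIF1 7.79, 7.67 and 6.90 FPKM.

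The signal carriers were expressed in a narrow band at 0 h. SMAD4 measured 7.95, 7.32 and 7.86 FPKM, SMAD3 6.36, 6.02 and 6.03 FPKM, and SMAD2 5.22, 5.71 and 5.12 FPKM. SMAD7, the feedback inhibitor of both branches, had the lowest mean of the 10 at 5.33, 3.79 and 4.35 FPKM, a range that overlapped SMAD2. SMAD4 could not be ordered against TGIF1, nor SMAD6 against BAMBI, SKIL, SMAD4 or TGIF1, since their libraries overlapped.

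**Figure D1:**
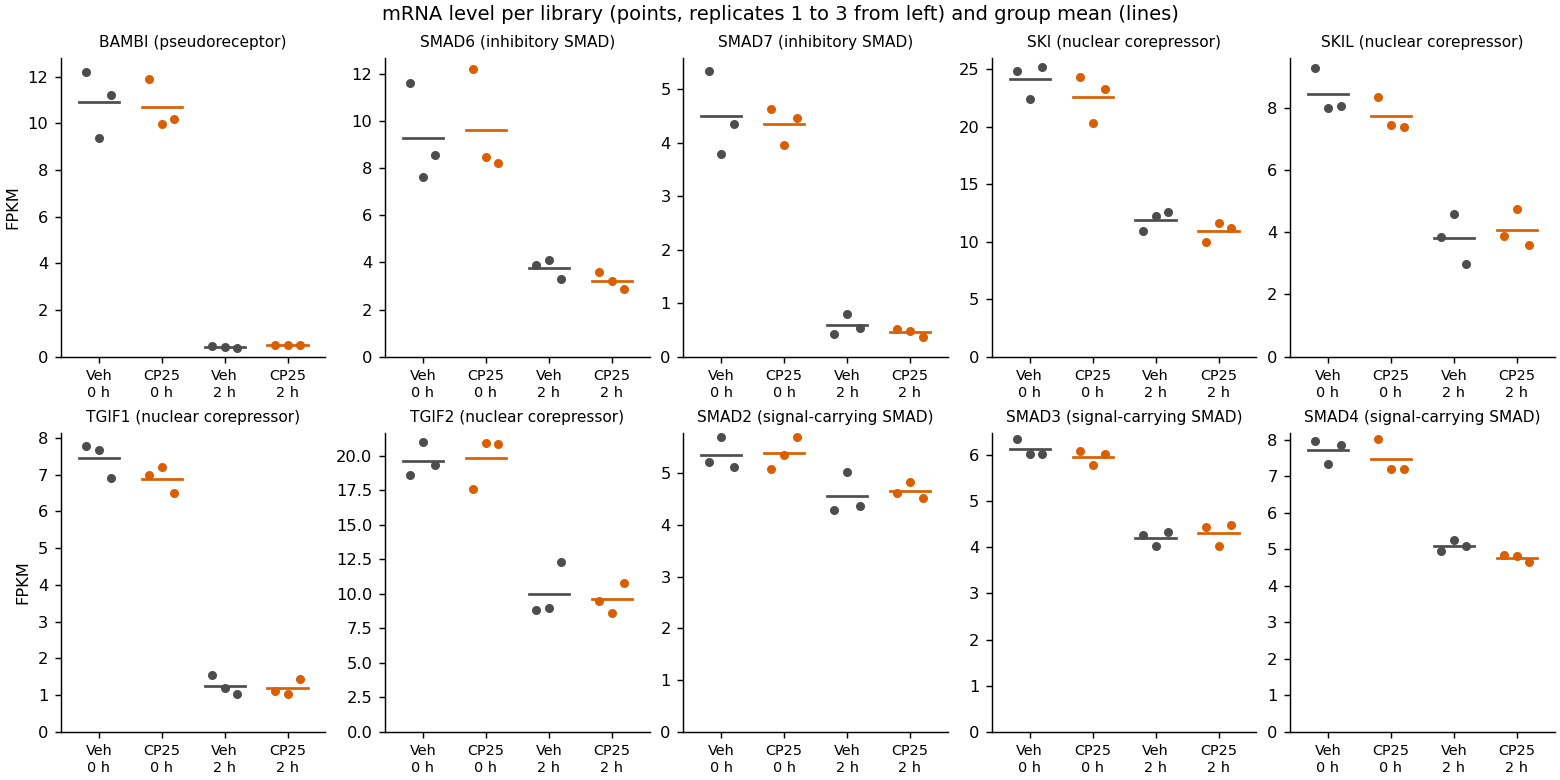
FPKM of the 10 genes in each of the 12 libraries (points, replicates 1 to 3 from left within a group) with the group mean (line); every vertical axis starts at 0 and is in FPKM. BAMBI, SMAD7 and TGIF1 drop nearest to 0 at 2 h, while SMAD2 stays between 4.3 and 5.02 FPKM in vehicle.

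After 2 h of actinomycin D, less was left of each feedback mRNA than of any signal carrier. In vehicle the feedback regulators stood at 3.76% to 51.1% of their mean FPKM at 0 h, and SMAD2, SMAD3 and SMAD4 at 66.2% to 85.4%, so the sets did not overlap. With CP25 the ranges were 4.76% to 52.7% for the feedback regulators and 63.7% to 86.5% for the signal carriers. The median over all 12183 genes was 86.5% in vehicle and 87.8% in CP25. The times come from separately deposited tables, and an FPKM gives only a gene's part of its library, so these percentages carry no test. In each treatment 6 of the 7 feedback genes and 0 of the 3 signal carriers were left below 50%, where 12.1% of all genes in vehicle and 11.7% in CP25 were. For all 10 genes in both treatments every 2 h library lay below every 0 h library. That was so for 46.0% of all genes in vehicle and 44.0% in CP25.

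BAMBI, the pseudoreceptor, was left lowest of the 10. Its libraries at 2 h measured 0.448, 0.405 and 0.378 FPKM in vehicle and 0.503, 0.505 and 0.520 FPKM in CP25, which is 3.76% and 4.76% of the level at 0 h. By percent left it ranked 39th of 12183 genes in vehicle and 46th in CP25, counted from the lowest. At these levels a library held an estimated 15 to 27 BAMBI fragments, and the counting error of a single library was 19.4% to 25.4%.

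The inhibitory SMADs were unlike each other. SMAD7 measured 0.423, 0.803 and 0.536 FPKM at 2 h in vehicle and 0.523, 0.471 and 0.362 FPKM in CP25, leaving 13.1% and 10.4%. SMAD6 measured 3.88, 4.10 and 3.29 FPKM in vehicle and 3.58, 3.23 and 2.88 FPKM in CP25, leaving 40.5% and 33.5%. Every SMAD6 library at 2 h kept a larger part of its 0 h mean than any SMAD7 library: 35.5% to 44.2% against 9.43% to 17.9% in vehicle, and 29.9% to 37.1% against 8.34% to 12% in CP25. At 2 h SMAD7 and BAMBI had become the least abundant of the 10, with overlapping libraries in both treatments.

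Among the nuclear corepressors the paralogs TGIF1 and TGIF2, homeodomain proteins that bind SMADs, parted as well. TGIF1 measured 1.54, 1.19 and 1.02 FPKM at 2 h in vehicle and 1.10, 1.02 and 1.43 FPKM in CP25, leaving 16.8% and 17.2%. TGIF2 measured 8.84, 8.95 and 12.3 FPKM in vehicle and 9.44, 8.60 and 10.8 FPKM in CP25, leaving 51.1% and 48.5%.

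SKI and SKIL, related corepressors that bind SMAD complexes, were left at similar levels. SKI measured 10.9, 12.2 and 12.6 FPKM at 2 h in vehicle and 10.0, 11.6 and 11.2 FPKM in CP25, or 49.2% and 48.3% of its 0 h mean. SKIL measured 3.85, 4.6 and 2.99 FPKM in vehicle and 3.89, 4.73 and 3.58 FPKM in CP25, or 45.2% and 52.7%. The vehicle libraries of SKIL spread from 35.4% to 54.5% and held all the SKI libraries between them.

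Values of TGIF2 are uncertain to the extent that reads can be shared with TGIF2-C20orf24, a read-through locus that joins TGIF2 to its neighbour C20orf24. That locus measured 0.615, 1.38 and 1.97 FPKM in vehicle at 0 h and 3.06, 3.92 and 3.33 FPKM at 2 h, and in CP25 1.51, 2.08 and 2.74 FPKM at 0 h and 2.25, 2.38 and 2.60 FPKM at 2 h. By value it was higher at 2 h than at 0 h in both treatments, where TGIF2 was lower, and it was below TGIF2 in all 12 libraries. C20orf24 was near level, at 97.0% in vehicle and 94.9% in CP25.

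The signal carriers kept most of their level. SMAD2, a carrier of the TGF-β and activin branch, measured 4.30, 5.02 and 4.38 FPKM at 2 h in vehicle and 4.62, 4.83 and 4.53 FPKM in CP25, leaving 85.4% and 86.5%, next to the median gene. SMAD3, its closest relative, was left at 68.5% and 72.4%, and SMAD4, the shared partner, at 66.2% and 63.7%. SMAD2 and SMAD4 were separate in every library: 80.4% to 93.9% against 64.3% to 68.1% in vehicle, and 84.0% to 89.7% against 62.2% to 64.6% in CP25. When libraries were centred on their median, which raised the median log2 ratio of all genes by 0.34 in vehicle and 0.33 in CP25, the ratio of SMAD2 became positive, and those of the other 9 genes stayed negative.

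**Figure D2:**
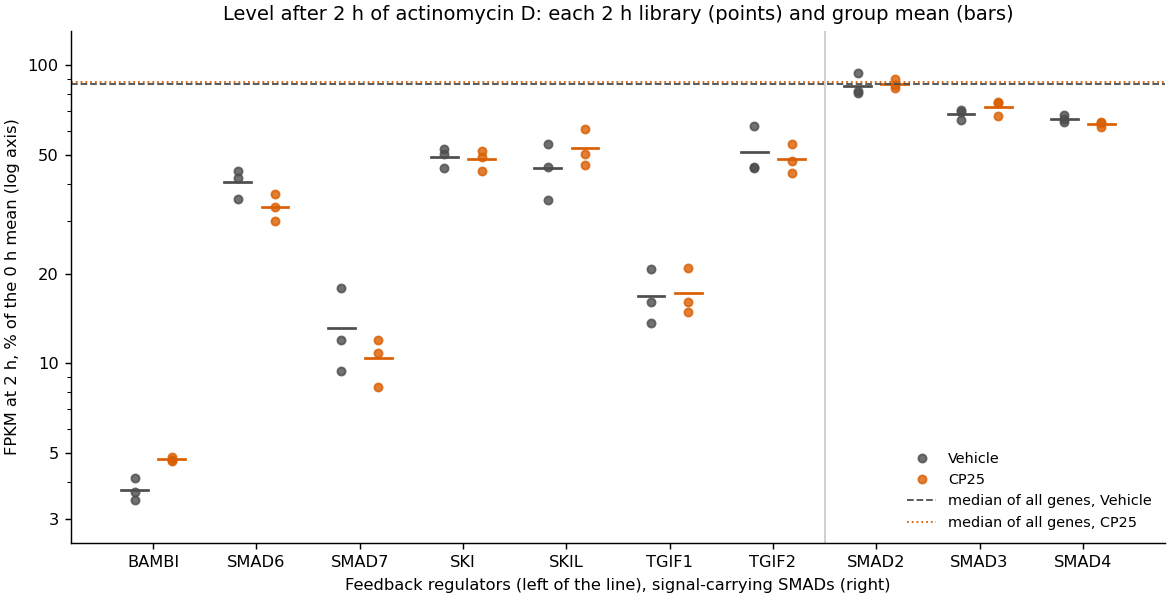
FPKM of each 2 h library as a percent of the mean at 0 h of the same treatment (points, log axis) with the group mean (short bars) for the 10 genes; dashed and dotted lines are the medians of all 12183 genes, 86.5% in vehicle and 87.8% in CP25. The 7 feedback regulators lie between 3.76% and 52.7% by their means, and the 3 signal carriers between 63.7% and 86.5%.

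On the scale used for the tests, log2(FPKM + 1), low values are compressed by the added 1. The 2 h level of BAMBI relative to 0 h was -3.07 (log2) in vehicle and -2.95 in CP25, TGIF1 -1.91 and -1.86, SMAD7 -1.79 and -1.88, and SMAD6 -1.09 and -1.31. These 4 of 7 feedback genes were below -1 in both treatments, against 7.26% of all genes in vehicle and 7.22% in CP25. SKI, SKIL and TGIF2 lay between -0.79 and -0.98. The median of the feedback regulators was -1.09 in vehicle and -1.31 in CP25, that of the signal carriers -0.46 and -0.39, and that of all genes -0.18 and -0.16.

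A ratio of 2 genes within a library is free of any scale factor between the tables. BAMBI stood at 1.54, 1.28 and 1.42 times the FPKM of SMAD4 in vehicle at 0 h and at 0.0905, 0.0773 and 0.0742 times at 2 h. In CP25 the ratio was 1.49, 1.38 and 1.42 at 0 h and 0.104, 0.105 and 0.112 at 2 h. SMAD7 went from 0.671, 0.517 and 0.553 times SMAD4 to 0.0854, 0.153 and 0.105 times in vehicle. SMAD6, which had exceeded SMAD4 in all 6 libraries at 0 h (1.04 to 1.53 times), was below it in all 6 at 2 h (0.619 to 0.783 times). For all feedback genes together, the ratio of their geometric mean to that of the signal carriers was 1.65 ± 0.126 in vehicle and 1.62 ± 0.0824 in CP25 at 0 h, and 0.524 ± 0.0272 and 0.507 ± 0.00498 at 2 h (SD, n = 3).

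Genes with the most similar course over the 12 libraries were ranked by the root mean square difference of their log2 values from the vehicle mean at 0 h, among 8865 genes of at least 5 FPKM. Genes with small RNA, clone or provisional names (such as LOC, LINC and KIAA) were skipped among these. Nearest to BAMBI were NFKBIA, the inhibitor of NF-κB (difference 0.165), SERTAD3, a transcription cofactor (0.209), and ZNF503, a zinc-finger repressor (0.236). They were left at 4.64% to 8.52%, beside 3.76% and 4.76% for BAMBI in vehicle and CP25. Nearest to SMAD7 were NRIP1, a nuclear receptor corepressor (0.101), CDKN1B, a CDK inhibitor (0.113), and ZNF746 (0.125). By percent left they were less alike, at 20.8% to 25.4% beside 13.1% and 10.4% for SMAD7. The added 1 compresses the low values of SMAD7 at 2 h. Nearest to SMAD4 were FBXO10 (0.0378), GLCCI1 (0.045) and MGAT5 (0.0472), which were left at 64.4% to 68.5%.

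The wider pathway was described from 7 lists of 100 genes by role, of which 76 reached 1 FPKM. A log2 ratio under -1 was found for 19 of the 76 in vehicle (25.0%) and for 20 with CP25 (26.3%), beside 7.26% and 7.22% of all genes. Transcriptional targets made up most of them. Of the 15 measured, 12 were below -1 in both treatments, and their median was -1.97 in vehicle and -1.81 in CP25. MYC, which TGF-β represses in many epithelial cells, and HES1 were lowest (log2 ratios -3.22 and -2.76 in vehicle), and the CDK inhibitors CDKN1A and CDKN2B highest in vehicle (-0.59 and -0.55). In CP25 CDKN2B was highest (-0.67), followed by MSX1 (-0.86) and CDKN1A (-0.87). ID1, a direct BMP target, kept 14.2% (vehicle) and 11.7% (CP25).

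Receptors and membrane modulators had medians of -0.64 in vehicle and -0.72 in CP25 over 11 genes. ACVR2A, a type II activin receptor, was left at 34.3% and 35.3% and ACVR1B, a type I activin receptor, at 48.2% and 44.9%. BMPR2, the type II BMP receptor, was left at 65.7% and 77.1%, and TGFBR1, the type I TGF-β receptor, at 79.9% and 85.0%. BAMBI was left below all 4 of these receptors in both treatments.

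Among 9 ligands BMP4 was lowest, at 14.8% and 18.2%, followed by BMP2 at 23.8% and 21.2%, whereas BMP6 stood at 97.1% and 101%. The secreted antagonists and latency proteins had a median of -0.40 in both treatments (8 genes). By percent left NOG (noggin, which binds BMPs) was lowest, at 43.0% and 42.1%. CHRDL1, a BMP antagonist of the chordin family, was highest, at 127% and 125%. CHRDL1 was weakly expressed, however, with 0 h means under 1 FPKM (vehicle 0.853, CP25 0.937). FSTL1, a far more abundant mRNA of this list (0 h means 34.7 and 36.3), stood at 120% and 110%. The log2 ratio of FSTL1 exceeded that of CHRDL1 in vehicle (0.26 against 0.17) but not with CP25 (0.14 against 0.16). SMAD1, SMAD9 and SMAD5, the carriers of the BMP branch, were left at 58.5%, 79.0% and 84.5% in vehicle and 59.2%, 79.9% and 91.3% in CP25. SMAD1 thus lay below the lowest of SMAD2, SMAD3 and SMAD4, and the other two within or above their range. Ubiquitin ligases, deubiquitinases and phosphatases had medians of -0.10 and -0.07 (13 genes). RNF111 (Arkadia), a ligase that degrades SMAD7, SKI and SKIL, was left at 28.3% and 34.0%, and the deubiquitinase UCHL5 stood at 131% and 138%. SMAD cofactors and adaptors had medians of -0.23 and -0.18 (17 genes), with TOB1 lowest (20.6% and 22.0%) and STRAP (132% and 124%) and FKBP1A (127% and 124%) highest. LEMD3, which binds SMADs at the inner nuclear membrane, and the acetyltransferases EP300 and CREBBP were the other genes of this list below -1, all in both treatments.

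**Figure D3:**
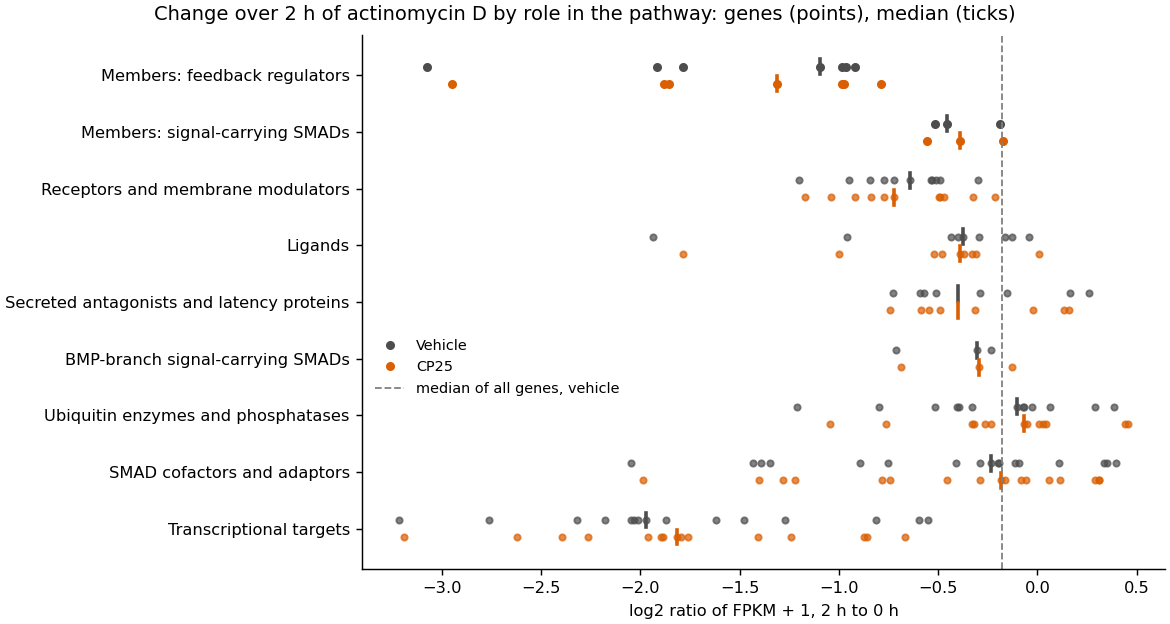
Log2 ratio of FPKM + 1, 2 h to 0 h, for the 10 genes and for the 76 expressed genes of 7 pathway lists (points, 1 per gene and treatment), with the median of each set (tick) and of all genes in vehicle (dashed line, -0.18). Feedback regulators and transcriptional targets have medians below -1 in both treatments, and the other lists lie above.

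CP25 before the block was compared with vehicle at 0 h to ask what the compound did to steady levels. No difference was detected for any of the 10 mRNAs. limma called 0 of 12365 genes at adjusted p 0.05 (0%), with 88 genes (0.712%) and none of the 10 at unadjusted p under 0.05, and the p-values of the authors' deposited table, adjusted here, also called 0. All 10 genes were tested. Their log2 differences, CP25 minus vehicle, ran from -0.11 for SKIL (95% interval -0.30 to 0.07) to 0.05 for SMAD6 (-0.38 to 0.48), each with limma adjusted p = 1. BAMBI, at 11.9, 9.98 and 10.2 FPKM in CP25, had -0.02 (-0.28 to 0.23), and SMAD7, at 4.62, 3.95 and 4.46 FPKM, had -0.03 (-0.30 to 0.24). SMAD4 had -0.04 (-0.20 to 0.12) and SMAD2 0.01 (-0.16 to 0.18). The libraries overlapped for all 10 genes, where 4.08% of all genes did not overlap (1.23% with CP25 higher and 2.85% with CP25 lower). SMAD6 was the least precise, and its interval allowed a level of FPKM + 1 from 0.767 to 1.39 times that of vehicle.

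After 2 h of block the comparison asks whether more of an mRNA was left in CP25. Of the 10 genes, 8 reached a mean of 1 FPKM and were tested. BAMBI and SMAD7 did not, and their values come from a fit with no filter. limma called 1 of 11745 genes (0.00851%), the small nucleolar RNA gene SNORD76, and none of the 10, with 87 genes (0.741%) and none of these 8 at unadjusted p under 0.05. The authors' p-values, adjusted here, called 0. SMAD6 was lower by value (-0.17, -0.41 to 0.07), as was SKI (-0.11, -0.31 to 0.09), each with limma adjusted p = 1. Both were lower with CP25 in all 3 pairs of libraries of the same replicate number, a pairing that the data do not establish. With that number as a block their unadjusted limma p was under 0.05, as it was for 814 of the 11745 genes. Their adjusted p = 0.716 by limma in that fit. SKIL had 0.08 (-0.25 to 0.42, limma adjusted p = 1), a direction that rested on single libraries: it was -0.05 without vehicle replicate 3, -0.01 without CP25 replicate 2 and 0.20 without vehicle replicate 2. Without CP25 replicate 3, SMAD6 had -0.11, SKIL 0.15, TGIF1 -0.12 in place of -0.04 and TGIF2 -0.12 in place of -0.05. SMAD2 and SMAD3 had 0.02 (-0.17 to 0.22) and 0.03 (-0.15 to 0.21).

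Libraries did not overlap for 1 of the 8 tested genes, against 4.21% of all 11745 (2.47% with CP25 higher and 1.75% with CP25 lower). This was SMAD4, at 4.96, 5.25 and 5.10 FPKM in vehicle and 4.83, 4.8 and 4.65 FPKM in CP25, all lower with CP25. Its log2 difference was -0.08 (-0.24 to 0.08, adjusted p = 1 by limma), and without CP25 replicate 3 it was -0.07.

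BAMBI did not overlap either, and was higher by value in every CP25 library. It was below the filter, so the shares given above do not cover genes as low as BAMBI. Vehicle libraries averaged 0.411 ± 0.0353 FPKM and CP25 libraries 0.510 ± 0.00945 FPKM (SD, n = 3). In the fit with no filter the log2 difference was 0.10 (0.0183 to 0.18, adjusted p = 1 by limma), and with a pseudocount of 0.1 it was 0.26 (-0.09 to 0.61, adjusted p = 1 by limma). The unadjusted p was under 0.05 with the pseudocount of 1, where BAMBI was 140th of 18438 genes by p, and over it with 0.1. In the fit with the pseudocount of 1, 339 of these genes had an unadjusted limma p under 0.05. The authors' deposited table gave it a p of 0.3159. The groups held an estimated 61 and 75 BAMBI fragments in all, with counting errors of 12.8% and 11.6%, and the spread of 1.85% between the 3 CP25 libraries was smaller than the counting error of any of them. SMAD7 overlapped and was lower by value, with a log2 difference of -0.12 (-0.35 to 0.10, limma adjusted p = 1).

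The effect of CP25 on the course of each mRNA is the difference of its effects, 2 h minus 0 h, in which the scale of the tables cancels. Above 0 an mRNA was better kept in CP25. limma called 0 of 12183 genes (0%), with 153 at unadjusted p under 0.05 (1.26%), and 0 of the 10 reached that p. BAMBI and SMAD7 passed the filter of this fit only through their 0 h libraries. At 2 h their means were under 1 FPKM (BAMBI 0.411 in vehicle and 0.51 in CP25, SMAD7 0.587 and 0.452). Their values here thus rest on 2 h levels too low for the filter. SKIL had 0.19 (95% interval -0.18 to 0.57), BAMBI 0.12 (-0.18 to 0.42), SMAD3 0.06 (-0.13 to 0.26), TGIF1 0.06 (-0.26 to 0.38) and SMAD2 0.02 (-0.21 to 0.24). SKI had -0.02 (-0.28 to 0.24), SMAD4 -0.04 (-0.24 to 0.15), TGIF2 -0.06 (-0.42 to 0.31), SMAD7 -0.09 (-0.47 to 0.29) and SMAD6 -0.22 (-0.71 to 0.27). All 10 had limma adjusted p = 1.

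These intervals bound what the fit without a block could have shown. In that fit 1.26% of genes had an unadjusted limma p under 0.05, fewer than this threshold allows without any effect. The intervals may thus be wider than needed. For SMAD2, SMAD3 and SMAD4 they allowed a change of at most 0.849 to 1.2 times in FPKM + 1. For SKIL the upper bound was 1.49 times and for SMAD6 the lower bound 0.612 times. BAMBI and SMAD7 are compressed by the added 1, and with a pseudocount of 0.1 their intervals were 0.927 to 1.59 times and 0.532 to 1.32 times. The difference for SMAD6 moved with single libraries, from -0.38 without vehicle replicate 1 at 0 h to -0.05 without CP25 replicate 1 at 0 h, the libraries in which SMAD6 was highest. Without CP25 replicate 3 at 2 h, BAMBI had 0.12, SMAD6 -0.16, SKIL 0.26, SMAD7 -0.05 and TGIF2 -0.13, and the value of TGIF1 changed sign to -0.02.

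With the replicate number as a block, SMAD6 and SKIL had an adjusted p = 0.413 by limma for the difference of effects, in place of 1. Their unadjusted limma p was under 0.05 there, as it was for 1284 of the 12183 genes, against 153 without the block. No call changed. That block pairs the libraries by number at 0 h as well as at 2 h, which the data do not establish. The read-through locus TGIF2-C20orf24 had the largest difference of those named here, -0.82 (95% interval -1.44 to -0.21, adjusted p = 1 by limma). Its unadjusted limma p was 0.0129, and with the block 0.000171 (adjusted p 0.271 by limma). At 2 h alone it had -0.38 (-0.61 to -0.14, unadjusted limma p 0.0063) and was not called. There every CP25 library lay below every vehicle library, as for 1.75% of the 11745 genes. Its vehicle libraries at 0 h were low and uneven, with a mean of 1.32 FPKM and a coefficient of variation of 51.4%. Of the pathway genes tested, 0 passed the test in either direction in any of the 3 comparisons, and 0 had an unadjusted limma p under 0.05. The medians of the lists for the difference of effects ran from -0.07 for ligands to 0.08 for ubiquitin enzymes and phosphatases, against 0.00826 for all genes.

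**Figure D4:**
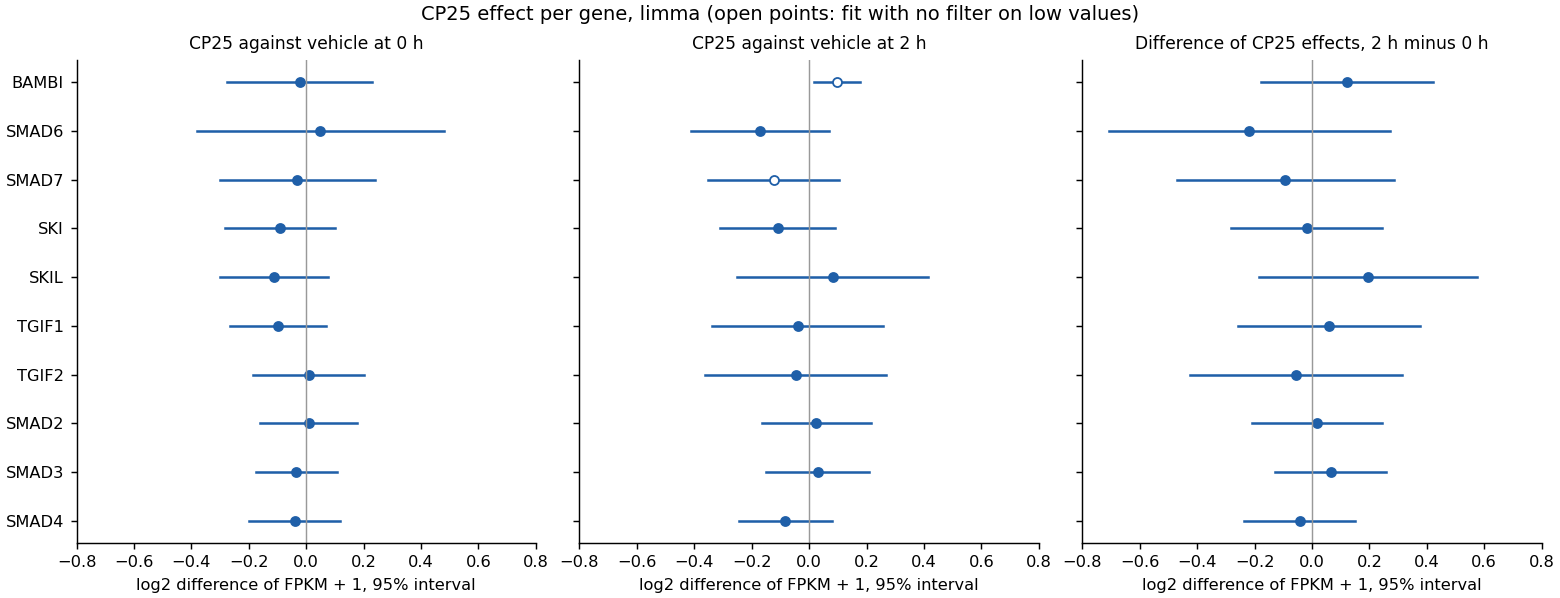
Log2 difference of FPKM + 1, CP25 minus vehicle, at 0 h and at 2 h, and the difference of these effects (points), with 95% limma intervals (lines), for the 10 genes. Open points, BAMBI and SMAD7 at 2 h, come from the fit with no filter on low values; the only interval that leaves out 0 is that of BAMBI at 2 h, 0.0183 to 0.18, with adjusted p = 1.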

How the data were processed

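The authors deposited, for each time, 1 table of FPKM values with a column per library and 1 table with group FPKM and a p-value for CP25 against vehicle, taken here as unadjusted. The submitters' processing notes name CASAVA 1.8.2 and Trimmomatic 0.36, and Bowtie2 2.2.3 with hg19. For the FPKM the program and annotation were not given in the sources used here.

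Values were fitted as log2(FPKM + 1) with limma 3.58.1 in R 4.3.3 (mean-variance trend, Benjamini-Hochberg adjustment over all genes, threshold 0.05), keeping genes that averaged 1 FPKM or more across a fit. The fits were tested on simulated data with independent noise for each gene and library. Such data cannot show how the fits behave where genes deviate together in a library. The 10 genes, the lists, the tests and the naming rule were chosen with earlier results of these data known. The rule named all 10 genes, TGIF2-C20orf24, the 2 lowest and 2 highest genes of each pathway list (a selection is printed) and the 3 nearest genes of BAMBI, SMAD7 and SMAD4. ID1, MSX1, EP300 and CREBBP were chosen after their values were seen. Fragment numbers rest on a depth estimated from genes with a single GENCODE 29 transcript, and errors made from them cover counting only. For pairing, deviations of same-numbered vehicle and CP25 libraries were correlated across genes. At 2 h r was 0.347, 0.44 and 0.147, and at 0 h it was 0.258, -0.0101 and 0.124. Vehicle replicate 3 at 2 h correlated nearly as well with CP25 replicate 1 (r 0.117). With 3 libraries per group such values cannot establish a pairing, so the replicate block is an alternative only. Alternatives changed the pseudocount, the filter, the scaling, the trend, the block and the libraries used.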

Additional observations from a re-analysis of the deposited data

How the results depend on the processing

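Leaving out single libraries gave 1 to 4 called genes at 0 h, 1 to 7 at 2 h and 0 to 3 for the difference of effects, where the full set gave 0, 1 and 0. The highest counts came without CP25 replicate 1 at 0 h (4), CP25 replicate 2 at 2 h (7) and CP25 replicate 2 at 0 h (3). Leaving out the third CP25 library at 2 h gave 5 calls at that time. None of the 10 genes was among them. The authors' p-values gave 0 at 2 h. The replicate block called 0, 1 and 0 genes and raised the genes at unadjusted p under 0.05 from 88 to 857, 87 to 814 and 153 to 1284. Of 466 alternative values for the CP25 effects on the 10 genes, 0 passed adjusted p 0.05 and 40 had the other sign. The distance between the medians of feedback regulators and signal carriers in CP25, -0.92, became -1.07 with a pseudocount of 0.1 and -1.09 with none, and ranged from -1.02 to -0.77 without single libraries. In vehicle it moved by less than the spread between libraries. Centring libraries on the median turned the ratio of SMAD2 to 0.15 in vehicle and 0.15 in CP25. With no pseudocount 6 feedback genes were below -1 in vehicle and 6 in CP25, in place of 4, and with centring 3 in each. The share of all genes below -1 moved as well, from 7.26% to 11.8% with no pseudocount and 3.32% with centring in vehicle, and from 7.22% to 11.5% and 3.42% in CP25. The cause of these shifts was not tested. Depth limits BAMBI and SMAD7 at 2 h.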
